A study of Homo sapiens with 18 samples.

Results

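The respiratory chain and ATP synthase genes were taken by symbol as every row beginning NDUF, UQCR, COX4 to COX8 or ATP5, the rows SDHA to SDHD, and the mitochondrial rows MT-ND, MT-CO, MT-CYB and MT-ATP, on chromosomes 1 to 22, X or MT. This gave 106 of 15896 rows, of which 93 were nuclear and 13 mitochondrially encoded. Counts for a complex cover only the rows so taken, since some subunits are outside this rule. Of the nuclear rows, 83 were protein-coding and 10 were not (6 pseudogenes, 2 antisense genes and 2 readthrough rows), and 4 more rows with matching symbols lay on patch or haplotype contigs and were left out. All 83 coding nuclear genes and all 13 mitochondrial genes passed the filter on low values, together with 5 of the 10 remaining rows, none of which passed the test in any comparison.

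RNA-seq had been performed on N/TERT2G cells, an immortalised human keratinocyte line, transduced with Ad-TEADi or with Ad-GFP as the control at a multiplicity of infection of 25 and collected after 12, 24 or 48 h. TEADi is a nuclear GFP fusion with domains of VGLL4, TAZ and YAP1 that bind TEAD, which occupies TEAD transcription factors in place of the co-activators YAP1 and TAZ, and it was expressed, like the control GFP, from an adenoviral vector in cells of 1 line kept in the same keratinocyte growth medium. Each of the 6 groups held 3 libraries, 18 in all. The sources used here do not say that the 3 libraries came from separate cultures, so the spread behind each p-value is that of these libraries and may be technical.

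The respiratory chain passes electrons from NADH (complex I) and succinate (complex II) through complex III to oxygen at complex IV, and the ATP synthase (complex V) uses the proton gradient built on the way. Complexes I, III, IV and V are mosaics: a few catalytic or membrane subunits are made inside the mitochondrion from its own circular DNA, and the others, with all of complex II and every assembly factor, come from nuclear genes that are transcribed separately and imported as proteins. Mitochondrial DNA is transcribed as long polycistronic RNAs that are cut into single messages. Mitochondrial genes read from the same strand thus share their transcription but differ in the stability of their RNA.

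Libraries held from about 14200000 to 26700000 reads, computed from the value that 1 read was worth in each, and the Ad-TEADi 24 h replicate 3 library was the deepest. Summed over the marker list, keratinocyte genes reached 30700 to 63734 TMM-normalised counts per 1000000 reads (CPM) in every library, against 48.0 to 109 for fibroblast genes, 0.89 to 2.93 for melanocyte genes and 16.4 to 58.9 for immune and endothelial genes. Between the viruses at 48 h, 6 of 11 keratinocyte markers were higher and 1 lower, 3 of 6 tested fibroblast markers were higher and 1 lower, 2 of 2 immune and endothelial markers were higher and the 1 melanocyte marker tested was lower, and with time 10 of 11 keratinocyte markers rose under each virus. The part of these markers in the results was not tested. The mitochondrial genes took 2.85% to 4.28% of the summed values of a library and the nuclear ones 0.423% to 0.566%. In bulk RNA, fewer cells of a type and less RNA per cell cannot be told apart.

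Throughout, a change is a difference of log2(CPM + 1) between group means with its standard error (SE), so that changes of genes near 1 CPM are understated. A gene passed when limma's moderated test gave a Benjamini-Hochberg adjusted p under 0.05 over the 13417 genes tested, and it was called when the change was also at least 1.5-fold. Nuclear genes are compared with each other only by their changes, not by their levels.

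Time after transduction was the first axis on which these genes moved. All groups were transduced, so time in culture and time under a virus cannot be told apart. Between 12 and 48 h in Ad-GFP cells, 70 of the 83 coding nuclear genes rose and 2 fell, where 31.1% of all tested genes were higher and 24.9% lower, and the median change was 0.44 against 0.03 over all tested genes. In Ad-TEADi cells 61 rose and 4 fell, where 35% of all genes were higher and 33% lower, with a median of 0.38 against 0.01. At the 1.5-fold limit 24 of these nuclear genes were called higher in Ad-GFP cells (8.34% of all genes were) and 26 in Ad-TEADi cells (14.3%), and none was called lower. The 48 h and 12 h libraries did not overlap for 69 genes that were higher and 2 that were lower in Ad-GFP cells (34.1% and 27.9% of all genes), and for 61 and 4 in Ad-TEADi cells (36.2% and 34.1%). Whether the time courses of the viruses differed was not tested as such.

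**Figure D1:**
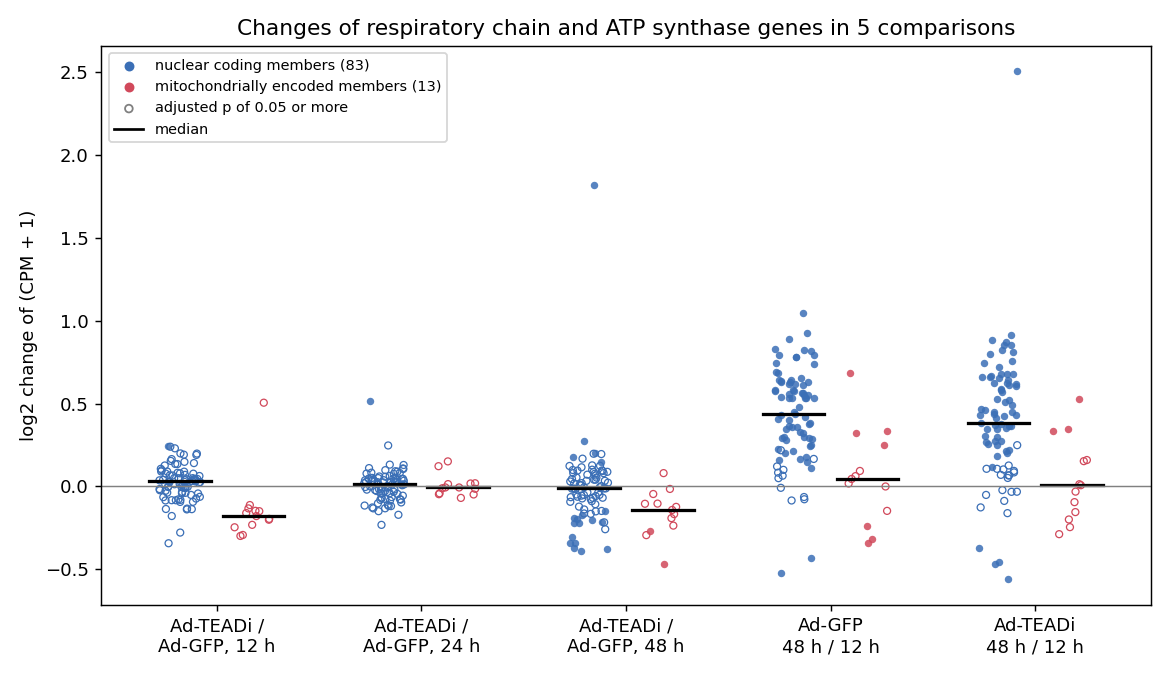
Change in log2(CPM + 1) of each tested gene, with 1 point per gene (filled where it passed), coding nuclear beside mitochondrial genes and a bar at each median, in the comparisons of Ad-TEADi with Ad-GFP and of 48 h with 12 h. Nuclear subunits sit above 0 in both time comparisons, where their medians over all coding nuclear genes are 0.44 and 0.38, and around 0 between the viruses.

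Complex IV showed this most fully. The rule took 10 of its nuclear genes outside the tissue and condition isoforms (COX6B2, COX7A2L and NDUFA4L2, described separately). All 10 rose with time under both viruses, with medians of 0.63 in Ad-GFP and 0.73 in Ad-TEADi cells. Of them, 7 and 9 were called. Beside this and the counts of the other complexes, 31.1% and 35% of all tested genes rose, and 8.34% and 14.3% were called higher. COX7C, a small membrane subunit, was at 34.0, 30.9 and 34.2 CPM in the Ad-GFP 12 h libraries, at 47.7, 50.2 and 53.6 CPM at 24 h and at 64.6, 71.0 and 72.6 CPM at 48 h. The 3 times did not overlap, and the change of 1.05 ± 0.07 (adjusted p = 1e-14) was the largest of the nuclear rises in Ad-GFP cells. In Ad-TEADi cells COX7C went from 36.1, 42.4 and 35.9 CPM at 12 h to 72.4, 70.5 and 65.5 CPM at 48 h, a change of 0.85.

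Other complex IV genes moved by similar amounts. COX7A2, another small membrane subunit, rose by 0.89 and 0.92 in Ad-GFP and Ad-TEADi cells, COX6C by 0.78 and 0.83, and COX4I1, the isoform of subunit 4 used in most tissues, by 0.61 and 0.67. COX6A1, COX5B, COX8A and COX5A also rose under both viruses, by 0.36 (COX5A) to 0.64 (COX6A1) in Ad-GFP cells. NDUFA4, named after complex I but now counted with complex IV, rose by 0.79 and 0.88. COX7A2L, a relative of COX7A2 that takes part in joining complexes III and IV, rose by 0.78 and 0.66.

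Complex III behaved alike in count: all 8 nuclear genes taken by the rule rose under both viruses, with medians of 0.60 and 0.52. The structural subunits UQCRQ, UQCRH and UQCRC1 rose by 0.64, 0.63 and 0.63 in Ad-GFP cells, whereas UQCRC2, the partner of UQCRC1 in the core, rose by 0.18. For complex V, 13 of 15 nuclear genes rose under each virus, with medians of 0.40 and 0.36. ATP5G2, 1 of the genes for the c subunit of the rotor, rose by 0.80 and 0.81, while the catalytic subunits ATP5A1 and ATP5B rose by 0.30 and 0.24 in Ad-GFP cells. All 4 genes of complex II rose in Ad-GFP cells (SDHA by 0.66, SDHC by 0.44, SDHB by 0.30 and SDHD by 0.20), and 2 of them, SDHA and SDHC, rose in Ad-TEADi cells, where 35% of all tested genes did.

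Complex I was less even. Of its 35 nuclear subunit genes taken by the rule, 30 rose in Ad-GFP cells and 24 in Ad-TEADi cells. The medians were 0.38 and 0.35. Of these genes 8 and 7 were called, where 8.34% and 14.3% of all tested genes were called higher. The 28 accessory subunits, which surround the catalytic core, had medians of 0.43 and 0.38, and 25 and 22 of them rose. The 7 nuclear core subunits, which carry the flavin and iron-sulphur centres, had medians of 0.23 and 0.11, and 5 and 2 of them rose. The 2 in Ad-TEADi cells are no larger a share than the 35% of all tested genes that rose there. Among accessory subunits NDUFA1 rose by 0.93 and 0.85, NDUFA13 by 0.82 and 0.87, and NDUFS5 by 0.83 and 0.68.

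The NDUFAF genes, which encode assembly factors that are not part of the finished enzyme, did not share the rise. Of the 7, 2 rose and 2 fell in Ad-GFP cells (median -0.06), about the 31.1% and 24.9% of all tested genes, and 1 rose and 4 fell in Ad-TEADi cells (median -0.37), where 35% and 33% of all genes did. NDUFAF7, a methyltransferase that modifies a core subunit during assembly, was at 9.66, 8.38 and 10.2 CPM in Ad-GFP cells at 12 h and at 6.72, 7.22 and 6.18 CPM at 48 h. No 48 h library reached the lowest 12 h library, and the change was -0.43 in Ad-GFP and -0.56 in Ad-TEADi cells. NDUFAF6 changed by -0.52 and -0.46, and NDUFAF4 and NDUFAF1 passed in Ad-TEADi cells, at -0.47 and -0.37, and were at -0.08 and 0.08 in Ad-GFP cells.

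The size of the rise depended on the scaling. With the deposited TPM values, whose gene lengths matched the genomic span, the median of all genes was -0.13 in Ad-GFP and -0.17 in Ad-TEADi cells. With them 48 members were higher and 16 lower in Ad-GFP cells, in place of 74 and 5. In Ad-TEADi cells 40 were higher and 27 lower, in place of 64 and 4. A fixed span cancels in a change between times, except for low values. TPM values are shares of a library total, of which the mitochondrial genes took 28.9% to 37.7%. Genes of long span had low TPM values, where changes are understated: NDUFAF6 was at 0.0258, 0.0262 and 0.0332 in the Ad-GFP 12 h libraries. What part each had in these counts was not tested. After rescaling to the sum outside the mitochondrial chromosome, 54 members were higher and 15 lower in Ad-TEADi cells. Relative to the median of all genes, the coding nuclear genes stood at 0.41 and 0.37 with the CPM values, at 0.34 and 0.32 with TPM, at 0.39 and 0.37 after that rescaling, and at 0.42 and 0.41 after quantile normalisation. SDHB in Ad-GFP cells and SDHA in Ad-TEADi cells, at 0.07 and 0.11, no longer passed with TPM. Without the Ad-GFP 12 h replicate 1 library, whose nuclear genes were the highest of its group, 35 members were called in Ad-GFP cells in place of 25.

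Transcript length moved with the rise. Among coding nuclear members whose canonical transcript was under 700 bases, 33 of 34 rose in Ad-GFP cells (median 0.58), against 49% of the 308 other genes of that length outside the ribosomal protein lists (median 0.28). From 700 to under 1000 bases 10 of 12 rose (median 0.42, against 0.23), from there to under 2000 bases 13 of 16 (0.33 against 0.12), from there to under 4000 bases 8 of 11 (0.29 against 0.01), and from 4000 bases 5 of 9 (0.12 against -0.02). The medians of the members thus lay above those of other genes in each length class, and both fell from the shortest class to the longest. In Ad-TEADi cells the member medians were 0.59, 0.37, 0.22, 0.35 and -0.03 in the same order, against 0.31, 0.18, 0.07, -0.01 and -0.04 for the other genes. The part that length had in the rise was not tested.

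**Figure D2:**
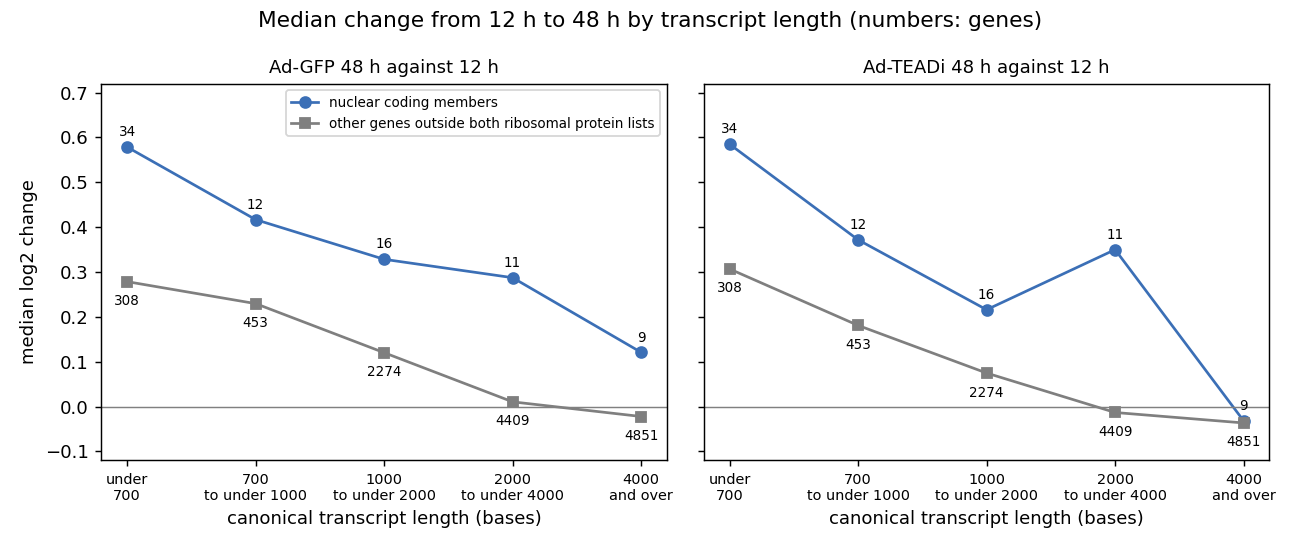
Median change from 12 to 48 h in log2(CPM + 1) by canonical transcript length for coding nuclear members and for the other tested genes outside the ribosomal protein lists, in Ad-GFP (left) and Ad-TEADi cells (right). In both groups of genes the shortest transcripts have the highest medians, 0.58 and 0.28 in Ad-GFP cells.

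The 13 mitochondrially encoded genes did not rise with the nuclear ones. Between 12 and 48 h their median change was 0.05 in Ad-GFP and 0.01 in Ad-TEADi cells. Leaving out single libraries moved these medians between -0.02 and 0.12 and between -0.01 and 0.05. In Ad-GFP cells 4 rose and 3 fell, near the 31.1% and 24.9% of all tested genes, and in Ad-TEADi cells 3 rose and none fell (35% and 33% of all genes). The groups did not overlap for 3 that were higher and 3 that were lower in Ad-GFP cells (34.1% and 27.9% of all genes) and for 5 and 4 in Ad-TEADi cells (36.2% and 34.1%), again near the share of all genes. The median of the mitochondrial changes lay 0.39 below that of the 83 coding nuclear genes in Ad-GFP cells and 0.38 below it in Ad-TEADi cells, and 0.58 and 0.65 below it after quantile normalisation. These differences are descriptions, since genes are not replicates.

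Within each library, the median log2(CPM + 1) of the mitochondrial genes minus that of the coding nuclear genes was also higher at 12 h than later. In Ad-GFP cells it was 5.87, 5.91 and 5.89 at 12 h, 5.23, 5.37 and 5.35 at 24 h, and 5.36, 5.54 and 5.23 at 48 h, so that every 12 h library lay above every later one, while 24 and 48 h overlapped. In Ad-TEADi cells it was 5.63, 5.74 and 5.74 at 12 h, 5.30, 5.12 and 5.51 at 24 h, and 5.33, 5.41 and 5.43 at 48 h. The 24 h spread came with the deepest library, replicate 3, in which mitochondrial genes took 3.82% of the values against 3% and 2.85% in the others. The group means of the nuclear median rose from 5.14 through 5.41 to 5.58 in Ad-GFP cells. Those of the mitochondrial median went from 11.03 through 10.73 to 10.95. The mitochondrial median of a library is the level of a single gene, MT-ND5 in every 12 h library and MT-CYB in every later one. The 12 h libraries are therefore compared with the later ones through different mitochondrial genes.

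**Figure D3:**
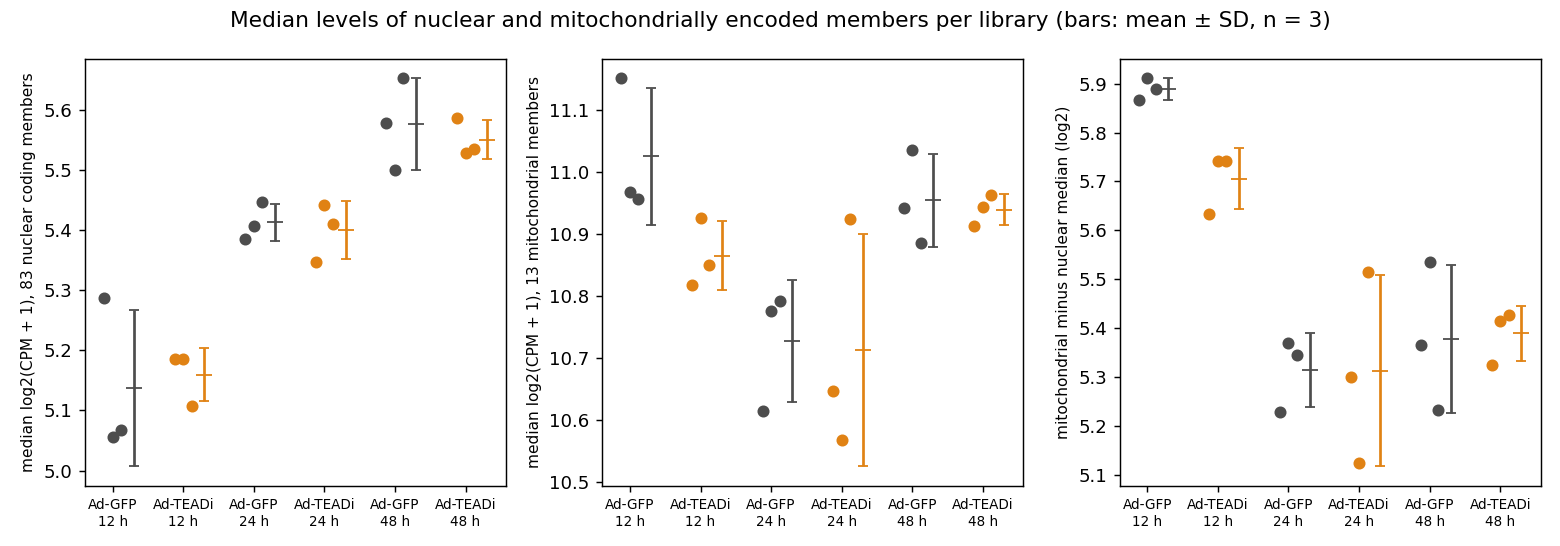
Median log2(CPM + 1) of the mitochondrial and of the coding nuclear genes, and the difference between them, in each of the 18 libraries by time (h) and virus, with the mean and SD of each group of 3. The difference is 5.87 to 5.91 in the Ad-GFP 12 h libraries and 5.63 to 5.74 in the Ad-TEADi 12 h libraries. It is no higher than 5.54 in any later library. The mitochondrial median is the level of MT-ND5 in every 12 h library and of MT-CYB in every later one.

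The order of time points also differed by genome. For 63 of the 83 coding nuclear genes the Ad-GFP means rose from 12 through 24 to 48 h, and for 57 they did so in Ad-TEADi cells. For 10 of the 13 mitochondrial genes the Ad-GFP mean was lowest at 24 h, and for 7 in Ad-TEADi cells. The shares of all tested genes with these orders were not counted, so whether the orders are particular to the members is not known. MT-ND4L, a small membrane subunit of complex I, was at 567, 537 and 545 CPM at 12 h, 367, 373 and 389 CPM at 24 h and 548, 596 and 616 CPM at 48 h in Ad-GFP cells. The 24 h libraries lay below all others of that virus.

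Mitochondrial genes moved in different directions among themselves. In Ad-GFP cells MT-ND1, a core membrane subunit of complex I beside the quinone site, was at 1752, 1372 and 1415 CPM at 12 h and 1149, 1278 and 1132 CPM at 48 h, a change of -0.34 ± 0.11 with no overlap. MT-ND2 and MT-ND5, both proton-pumping subunits of complex I, changed by -0.24 and -0.31. Without the Ad-GFP 12 h replicate 1 library, in which MT-ND1 was highest, none of these 3 passed (adjusted p = 0.0607 for MT-ND1, 0.07 for MT-ND2 and 0.0898 for MT-ND5). MT-ND2 and MT-ND5 also did not pass without the Ad-GFP 48 h replicate 1 (0.0613 and 0.0597) or replicate 3 library (0.0597 and 0.078).

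In the other direction, MT-CO2 and MT-CO3, core subunits of complex IV, rose by 0.32 and 0.34 in Ad-GFP cells and by 0.33 and 0.34 in Ad-TEADi cells, and MT-ND3 rose by 0.25 and 0.53. These rises in MT-CO2 and MT-CO3, and that of MT-ND3 in Ad-GFP cells, did not pass with TPM values, after rescaling or after quantile normalisation, where MT-CO3 was at -0.07 in Ad-GFP cells. In Ad-GFP cells MT-CO2 did not pass without the 12 h replicate 3 or the 48 h replicate 2 library (adjusted p = 0.0533 and 0.0534), nor MT-CO3 without the latter (0.0559). The lowest of the 13, MT-ND6, the only one of them read from the other strand of the circle, was at 26.0, 30.6 and 37.8 CPM at 12 h and 48.9, 47.3 and 56.1 CPM at 48 h in Ad-GFP cells, a change of 0.69 ± 0.17, and it was the 1 mitochondrial gene called. In the Ad-TEADi cells it was at -0.29 ± 0.17, which did not pass. The 2 mitochondrial ribosomal RNAs, which lie upstream on the same polycistronic strand as most of these messages, rose under both viruses: MT-RNR1 by 0.42 and 0.71 and MT-RNR2 by 0.70 and 0.85. Ribosomal RNA has short poly(A) tails, and how polyA selection acted on it was not tested.

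**Figure D4:**
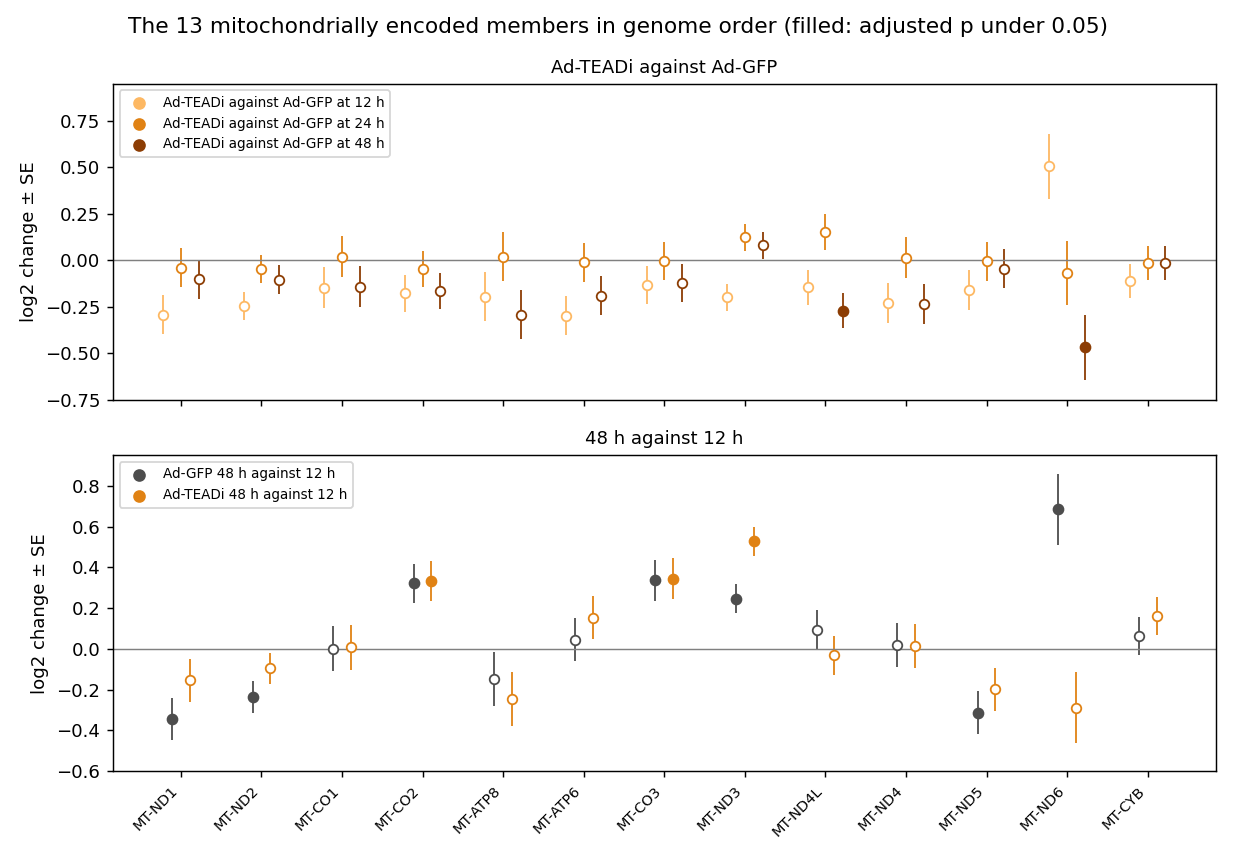
Change in log2(CPM + 1) with its SE for each of the 13 mitochondrially encoded genes, in the comparisons of Ad-TEADi with Ad-GFP at 12, 24 and 48 h (upper) and of 48 h with 12 h under each virus (lower). At 12 h 12 of the 13 points lie below 0, and MT-ND6 alone lies above it at 0.51.

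Mitochondrial genes have no introns, and their levels are given per kilobase. Some share a message, MT-ATP8 with MT-ATP6 and MT-ND4L with MT-ND4, so their levels are not independent. Per kilobase, averaged over all 18 libraries, MT-CO2 stood at 6011 CPM, MT-CO1 at 5944, MT-CO3 at 4109, MT-ATP6 at 3423 and MT-ND4 at 3136, whereas MT-ND5 stood at 929, MT-ND3 at 659 and MT-ND6 at 73.0. The other 5 lay between 1217 (MT-ND1) and 2072 (MT-ND2). Neighbouring genes share bases, and reads there cannot be given to 1 gene: MT-ATP8 and MT-ATP6 share 46 bases (chrM:8527-8572 of GRCh37, a circle of 16569 bases), MT-ND4L and MT-ND4 share 7 (chrM:10760-10766) and MT-ATP6 and MT-CO3 share 1 (chrM:9207-9207). The shared stretches are shown in capitals, with 30 bases on each side, on the strand of the messages, because they bear on how separate the values of these pairs are.
MT-ATP8/MT-ATP6: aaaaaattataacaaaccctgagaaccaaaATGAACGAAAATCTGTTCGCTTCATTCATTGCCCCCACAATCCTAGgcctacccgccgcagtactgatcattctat
MT-ATP6/MT-CO3: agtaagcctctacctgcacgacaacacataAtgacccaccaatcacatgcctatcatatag
MT-ND4L/MT-ND4: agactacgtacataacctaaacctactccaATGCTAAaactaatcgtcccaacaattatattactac
The longest stretch opens with the start codon of MT-ATP6, and the shortest holds the first base of MT-CO3.

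Ad-TEADi and Ad-GFP were compared at each time to ask how blocking TEAD acted on these genes. At 12 h 1 member passed, the accessory complex I subunit NDUFA5, where 0.559% of all tested genes were higher and 0.544% lower and none of the members was called (0.0447% of all genes were). NDUFA5 was at 31.3, 30.1 and 31.7 CPM in Ad-GFP and 36.5, 39.4 and 34.9 CPM in Ad-TEADi libraries. The groups did not overlap, and the change was 0.24 ± 0.06 (adjusted p = 0.0492). It no longer passed without Ad-GFP 12 h replicate 1, 2 or 3 (adjusted p = 0.105, 0.12 and 0.0539) or without Ad-TEADi 12 h replicate 1 or 2 (0.133 and 0.203).

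The mitochondrial genes at 12 h were lower by small amounts that did not pass singly. Of the 13, 12 were below 0 (median change -0.18, and -0.11 without Ad-GFP 12 h replicate 1), and for 9 of them the 3 Ad-TEADi libraries lay below all Ad-GFP libraries, where 11% of all tested genes were lower without overlap. Since the mitochondrial genes other than MT-ND6 are read from the same strand and share their transcription, such counts, here and at 48 h, are not counts of independent genes. The largest of these, MT-ATP6, was at -0.30 ± 0.10, MT-ND1 at -0.29 ± 0.11 and MT-ND2 at -0.25 ± 0.08. The mitochondrial minus nuclear difference per library did not overlap between the viruses either (5.63 to 5.74 against 5.87 to 5.91). The coding nuclear genes had a median change of 0.03 at that time, with 7 higher and 4 lower without overlap (10.9% and 11% of all genes). At 24 h the mitochondrial median was -0.01, with 1 gene higher and none lower without overlap, where 17.7% and 16.4% of all genes were.

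At 24 h 1 of the 101 tested members passed, higher (9.91% of all genes were higher and 8.03% lower), and none was called (1.79%). At 48 h 5 members rose and 16 fell, where 22.7% of all genes were higher and 27.8% lower, and 1 was called, higher, where 6.27% of all genes were. The median of the coding nuclear genes was -0.01, close to the -0.03 of all genes, and 52 of the 83 had overlapping groups, with 12 higher and 19 lower without overlap (26.8% and 31.9% of all genes). With TPM values 12 members rose and 10 fell, and NDUFA7, NDUFA9, NDUFA10, NDUFA11, NDUFS7 and MT-ND6 were among those that did not pass (adjusted p = 0.0701 to 0.165). A fit on the libraries of these 2 groups alone gave 8 higher and 25 lower.

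COX6B2 was the one called. It is an isoform of the complex IV subunit COX6B1 known mainly from testis, and lies on chr19:55860674-55866182 of hg19, on the reverse strand. At 48 h it was at 2.5, 2.58 and 3.46 CPM in Ad-GFP and 13.6, 11.2 and 12.8 CPM in Ad-TEADi libraries, with means of 2.85 ± 0.53 and 12.5 ± 1.2 CPM (SD, n = 3). Every Ad-TEADi library lay above every Ad-GFP library, and the change was 1.82 ± 0.15 (adjusted p = 8.4e-12). At 12 h it was at 2.01, 1.07 and 1.86 against 1.42, 1.46 and 1.25 CPM, and at 24 h at 1.55, 1.19 and 1.07 against 2.39, 1.59 and 2.82 CPM. The 12 h groups overlapped and the 24 h groups did not.

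The 24 h change of COX6B2 was 0.51 ± 0.15 (adjusted p = 0.016) and did not pass without Ad-GFP 24 h replicate 2 or 3 (adjusted p = 0.0552 and 0.0751) or Ad-TEADi 24 h replicate 1 or 3 (0.0514 and 0.126). Its response grew by 1.30 ± 0.22 between 24 and 48 h (adjusted p = 3e-05), and from 12 to 48 h it rose by 2.5 in Ad-TEADi cells, against 0.55 in Ad-GFP cells. Its exons share 469 bases with an unnamed gene on the same strand, and the part of those reads in the rise was not tested. COX6B1, the isoform used in most tissues, had a change of 0.08 ± 0.06 at 48 h, with 82.8, 79.3 and 84.7 CPM in Ad-GFP and 95, 83 and 83.5 CPM in Ad-TEADi libraries, which overlapped.

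**Figure D5:**
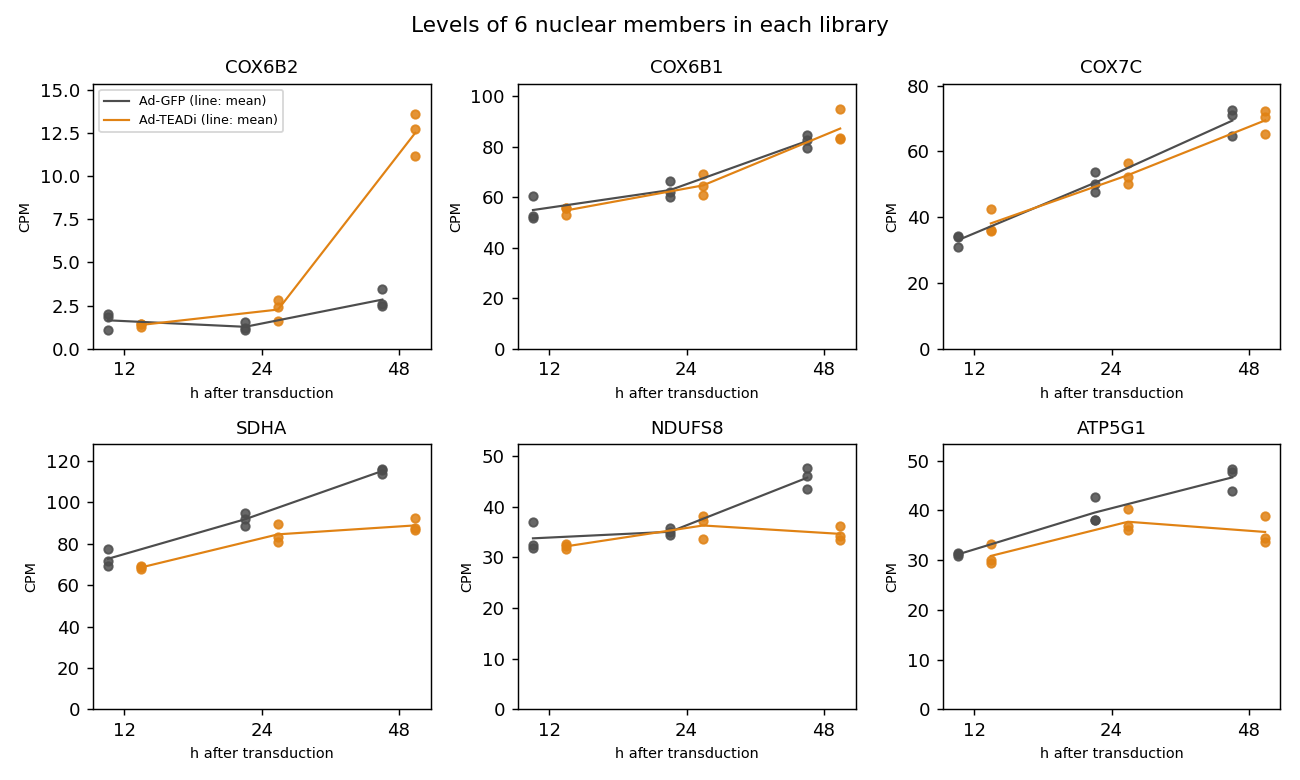
CPM in each library for COX6B2, COX6B1, COX7C, SDHA, NDUFS8 and ATP5G1 by time (h) and virus, with 1 point per library, group means joined and the times set at equal steps. COX6B2 separates at 48 h (2.5 to 3.46 against 11.2 to 13.6 CPM), COX7C and COX6B1 rise under both viruses, and SDHA, NDUFS8 and ATP5G1 are lower in Ad-TEADi cells at 48 h.

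Of the 35 nuclear subunit genes of complex I, 9 fell and 2 rose at 48 h, no larger a share than the 27.8% of all tested genes that were lower, and of its 7 assembly factors 2 fell. All 7 nuclear core subunits were below 0 (median -0.20), and 4 of them fell, among them NDUFS8 and NDUFS7, which carry iron-sulphur clusters near the quinone site, and NDUFV1, which binds NADH and the flavin. NDUFS8 was at 47.6, 43.5 and 46.1 CPM in Ad-GFP and 36.3, 34.2 and 33.5 CPM in Ad-TEADi libraries, without overlap, a change of -0.39 ± 0.06 (adjusted p = 3.7e-06). NDUFV1 changed by -0.30, from 93.7, 99.4 and 99.4 to 81.7, 77.9 and 76.9 CPM, and NDUFS7 by -0.20. NDUFS7 has exon overlaps on the opposite strand and did not pass in any of the fits without 1 of the 48 h libraries other than the one without Ad-TEADi replicate 1 (adjusted p = 0.0508 to 0.367).

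The 28 accessory subunits were mixed at 48 h: 5 fell and 2 rose. NDUFV3, NDUFA7, NDUFA11, NDUFA9 and NDUFA10 changed by -0.22, -0.21, -0.20, -0.17 and -0.15. NDUFB5, a membrane-arm subunit, was at 28, 27.5 and 29.6 CPM in Ad-GFP and 34.4, 34.3 and 34.9 CPM in Ad-TEADi libraries, a rise of 0.28 ± 0.07 (adjusted p = 0.00064), and NDUFA5 rose by 0.20. Of these, NDUFB5 was the one that passed without any single library, whereas NDUFA5 did not pass without Ad-GFP 48 h replicate 1 (adjusted p = 0.0564) and NDUFV3 not without the same library (0.0606).

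NDUFA7, NDUFA9, NDUFA10 and NDUFA11 were also near the threshold at 48 h. NDUFA7 did not pass without Ad-GFP 48 h replicate 1, 2 or 3 or Ad-TEADi 48 h replicate 2 or 3 (adjusted p = 0.0545 to 0.148). NDUFA9 did not pass without Ad-GFP replicate 3 (0.0712) or Ad-TEADi replicate 2 or 3 (0.0809 and 0.0778), NDUFA10 not without Ad-TEADi replicate 3 (0.0738), and NDUFA11 not without Ad-GFP replicate 1 (0.109) or Ad-TEADi replicate 2 or 3 (0.0869 and 0.0683). NDUFA4 rose by 0.18 at 48 h and did not pass without Ad-GFP replicate 1 or 2 (0.0971 and 0.145) or Ad-TEADi replicate 1 or 2 (0.111 and 0.0768).

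The assembly factors NDUFAF3 and NDUFAF4, which act together early in building complex I, both changed by -0.34 at 48 h (adjusted p = 0.0018 and 0.002). NDUFAF4 was at 11, 11.5 and 10.5 CPM in Ad-GFP and 7.78, 9.06 and 8.68 CPM in Ad-TEADi libraries. NDUFAF3 was at 31.4, 32.8 and 33.4 CPM in Ad-GFP and 30.1, 24.0 and 22.9 CPM in Ad-TEADi libraries. Neither pair of groups overlapped. NDUFAF1, which passed with time in Ad-TEADi cells, was at -0.22 ± 0.10 between the viruses at 48 h and did not pass.

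In complex II 2 of the 4 genes fell at 48 h. SDHA, the flavoprotein that oxidises succinate, was at 116, 116 and 114 CPM in Ad-GFP and 92.2, 86.7 and 87.7 CPM in Ad-TEADi libraries at 48 h. The groups lay far apart, with a change of -0.37 ± 0.05 (adjusted p = 1.4e-07). At 24 h the libraries were at 95, 88.7 and 91.7 against 89.5, 80.9 and 83.2 CPM, which overlapped, and the response differed between the times by -0.25 ± 0.07 (adjusted p = 0.0088). SDHB, the iron-sulphur subunit, fell by 0.19 at 48 h, and not without Ad-TEADi 48 h replicate 2 (adjusted p = 0.055), whereas the membrane anchors SDHC and SDHD were at 0.05 and -0.01. SDHA shares 1870 exonic bases with an unnamed gene on the same strand and has pseudogene copies in the genome, so its reads may be divided among them.

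In complex V, ATP5G1 and ATP5O moved in opposite directions at 48 h. ATP5G1, a second gene for the c subunit, was at 48.4, 43.9 and 47.7 CPM in Ad-GFP and 38.9, 33.6 and 34.5 CPM in Ad-TEADi libraries, without overlap, a change of -0.38 ± 0.07 (adjusted p = 1.4e-05). ATP5G2, which encodes the same mature protein, did not pass. ATP5O, which sits in the stalk joining motor and head, rose by 0.14 ± 0.05 (adjusted p = 0.015), and not without Ad-GFP 48 h replicate 3 (0.0593) or Ad-TEADi 48 h replicate 2 (0.0807). None of the 8 nuclear genes of complex III taken by the rule passed at 48 h, and their changes ran from -0.05 to 0.09. Of the 10 of complex IV, which leave out the isoform COX6B2, NDUFA4 passed.

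Of the mitochondrial genes at 48 h, 12 of 13 were below 0 (median -0.14, and -0.08 without Ad-GFP 48 h replicate 2), 9 were lower without overlap (31.9% of all genes were), and MT-ND6 and MT-ND4L passed. The mitochondrial minus nuclear difference per library overlapped between the viruses at this time, with means of 5.38 in Ad-GFP and 5.39 in Ad-TEADi cells. Its mitochondrial part is the level of MT-CYB alone, at 1967, 2098 and 1892 CPM in Ad-GFP and 1927, 1969 and 1995 CPM in Ad-TEADi libraries. The median of the mitochondrial changes minus that of the coding nuclear changes was -0.13, so the 2 measures differed. MT-ND6 was at 48.9, 47.3 and 56.1 CPM in Ad-GFP and 33.4, 36.9 and 38.9 CPM in Ad-TEADi libraries, and MT-ND4L at 548, 596 and 616 against 507, 507 and 444 CPM. Both had groups without overlap, but the changes of -0.47 ± 0.17 and -0.27 ± 0.09 were near the threshold (adjusted p = 0.04 and 0.029). MT-ND6 did not pass without any 1 of the 6 libraries (adjusted p = 0.0549 to 0.127). MT-ND4L did not pass without Ad-GFP 48 h replicate 2 or 3 or Ad-TEADi 48 h replicate 3 (0.0738, 0.0943 and 0.119). MT-ND6 overlaps nothing on its own strand, but no source used here gives the strand setting of the counting, so antisense reads could not be told apart.

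Whether the response at 48 h differed from that at 24 h was tested directly. Of the members, 1 changed upwards (COX6B2) and 5 downwards (7.77% and 13% of all genes), and COX6B2 was the 1 called (3.01% of all genes were called higher). The response of NDUFS8 went from 0.05 at 24 h to -0.39 at 48 h, a difference of -0.44 ± 0.09 (adjusted p = 0.00043). SDHA differed by -0.25 between the times, as given above. The response of NDUFAF3 went from 0.10 to -0.34 (-0.44, adjusted p = 0.011), that of ATP5G1 from -0.07 to -0.38 (-0.31, adjusted p = 0.016) and that of MT-ND4L from 0.15 to -0.27 (-0.42, adjusted p = 0.041). With TPM values the differences of SDHA, NDUFAF3 and ATP5G1 did not pass (adjusted p = 0.247, 0.11 and 0.0634). The ATP5G1 difference did not pass without Ad-TEADi 24 h replicate 3 or 48 h replicate 2 (adjusted p = 0.0557 and 0.056), and that of MT-ND4L did not pass without any of the 24 h Ad-GFP replicates 1, 2 and 3 (0.0793, 0.0786 and 0.0544), the 48 h Ad-GFP replicates 2 and 3 (0.0774 and 0.0869) or the 48 h Ad-TEADi replicates 2 and 3 (0.0518 and 0.0992).

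Tissue isoforms of complex IV other than COX6B2 were few. COX4I2, COX6A2, COX7A1, COX7B2 and COX8C were not analysed here. NDUFA4L2, a paralogue of NDUFA4 known as a hypoxia-induced gene, was at 0.343 to 1.75 CPM over all libraries, and it rose with time by 0.56 in Ad-GFP and 0.51 in Ad-TEADi cells, the latter not without Ad-TEADi 48 h replicate 1 (adjusted p = 0.0765). C15orf48, another paralogue of NDUFA4, was at 0.0432 to 1.37 CPM and was not tested.

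The promoters of these genes were read to show what letters they share. RefSeq start sites (GRCh38.p14) gave a window of 250 bases before to 50 after the start for 67 of the 83 coding nuclear genes, among 35116 promoters. The NRF1 motif CGCATGCG was in 12 of the 67 (17.9%, against 2.02% of all promoters), the ETS motif CCGGAAG in 21 (31.3% against 10.3%), the YY1 motif AAGATGGCG in 8 (11.9% against 1.75%), the estrogen-related receptor motif AAGGTCA in 10 (14.9% against 3.92%), the E-box CACGTG in 8 (11.9% against 7.26%) and the TEAD motif GGAATG in 7 (10.4% against 14%). Both strands were searched, and none of these 6 strings contains another. NRF1, ETS and YY1 factors are long known at promoters of respiratory genes, but a match is only a description of letters.

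Promoters of 5 members are printed, 5′ to 3′ on the strand of the gene, with NRF1, ETS and YY1 matches in capitals. SDHB (chr1:17053983-17054282) and SDHD (chr11:112086623-112086922) belong to the same complex and differ in which motifs they hold. COX5B (chr2:97645812-97646111) holds 2 ETS matches. COX6B1 (chr19:35648073-35648372) and COX6B2 (chr19:55354670-55354969) are the isoform pair whose values parted at 48 h.
SDHB: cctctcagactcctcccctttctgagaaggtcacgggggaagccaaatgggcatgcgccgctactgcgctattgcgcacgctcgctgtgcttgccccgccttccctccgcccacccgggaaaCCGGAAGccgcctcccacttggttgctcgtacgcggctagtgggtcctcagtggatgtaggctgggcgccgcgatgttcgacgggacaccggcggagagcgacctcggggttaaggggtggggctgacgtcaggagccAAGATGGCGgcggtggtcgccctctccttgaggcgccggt
SDHD: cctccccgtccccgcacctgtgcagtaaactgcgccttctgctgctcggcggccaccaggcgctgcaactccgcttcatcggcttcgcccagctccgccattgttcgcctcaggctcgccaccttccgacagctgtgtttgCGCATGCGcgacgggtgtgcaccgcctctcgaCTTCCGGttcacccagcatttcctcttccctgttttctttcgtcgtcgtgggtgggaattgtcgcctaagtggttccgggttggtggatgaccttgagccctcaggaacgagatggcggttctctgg
COX5B: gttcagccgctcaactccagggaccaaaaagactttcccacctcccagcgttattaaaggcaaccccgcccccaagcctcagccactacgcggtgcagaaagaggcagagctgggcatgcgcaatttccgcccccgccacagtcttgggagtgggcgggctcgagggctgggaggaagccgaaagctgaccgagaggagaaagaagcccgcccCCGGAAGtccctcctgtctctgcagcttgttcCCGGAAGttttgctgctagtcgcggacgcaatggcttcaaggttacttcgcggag
COX6B1: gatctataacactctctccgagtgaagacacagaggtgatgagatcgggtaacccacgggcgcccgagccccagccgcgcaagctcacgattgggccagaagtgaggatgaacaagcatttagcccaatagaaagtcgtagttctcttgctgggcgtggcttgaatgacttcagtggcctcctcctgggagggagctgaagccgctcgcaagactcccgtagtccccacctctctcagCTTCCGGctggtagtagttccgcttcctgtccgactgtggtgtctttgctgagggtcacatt
COX6B2: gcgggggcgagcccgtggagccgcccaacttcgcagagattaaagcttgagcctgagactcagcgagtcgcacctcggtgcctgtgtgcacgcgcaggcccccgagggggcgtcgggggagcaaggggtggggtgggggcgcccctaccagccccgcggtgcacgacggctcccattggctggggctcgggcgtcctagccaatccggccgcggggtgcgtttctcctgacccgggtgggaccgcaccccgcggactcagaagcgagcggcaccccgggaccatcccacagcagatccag
The window of COX6B2 held none of the 6 motifs, and that of COX6B1 held 1, an ETS match on the opposite strand.

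Genes that work around the respiratory chain were read from lists, which were described by count and not tested as sets. Their counts at 48 h stand against 22.7% of all tested genes higher and 27.8% lower. At 48 h between the viruses, the import, pore and chaperone genes moved most: 18 of 27 fell and none rose, with a median of -0.33. TRAP1, a matrix chaperone, changed by -0.81, LONP1, the matrix protease, by -0.68, TIMM10, an intermembrane chaperone for import, by -0.65, TOMM40, the outer membrane import channel, by -0.61, and HSPA9, the matrix Hsp70, by -0.48. Of 76 mitochondrial ribosomal protein genes 40 fell and 2 rose (median -0.19), with MRPL11 at -0.70. Of 40 assembly factors outside the symbol rule 11 fell and 3 rose, the share of all genes that fell. Those that fell included FOXRED1 and ACAD9 for complex I (-0.54 and -0.35) and BCS1L, which inserts the Rieske protein into complex III (-0.42).

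Genes that maintain and read mitochondrial DNA fell at 48 h in a share near the 27.8% of all genes, and fewer rose than the 22.7% of all genes. Of 18 for replication and transcription 6 fell and 1 rose at 48 h: LIG3, the mitochondrial DNA ligase, changed by -0.66, TOP3A by -0.46 and POLRMT, the mitochondrial RNA polymerase, by -0.41. TFAM, which packages mitochondrial DNA and starts its transcription, was lower with time under both viruses, by -0.41 in Ad-GFP and -0.84 in Ad-TEADi cells. At 48 h between the viruses, of 21 genes for mitochondrial RNA processing and stability 10 fell and 1 rose. Those are a larger share of falls and a smaller share of rises than among all genes. PNPT1, an exoribonuclease, changed by -0.69, TBRG4 by -0.37 and LRPPRC, which stabilises mitochondrial messages, by -0.21. The 2 mitochondrial ribosomal RNAs did not fall: MT-RNR1 rose by 0.21 and MT-RNR2 was at 0.12 ± 0.08.

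Other subunits and carriers, and the citric acid cycle that feeds the chain, were counted in the same way. Of 14 subunits and carriers outside the rule 6 fell and 3 rose, with DHODH, which passes electrons from pyrimidine synthesis to ubiquinone, at -0.80, SLC25A5, an ADP/ATP carrier, at -0.50 and CYCS, cytochrome c, at -0.29. Of 19 citric acid cycle genes 8 fell and 1 rose: IDH3A, a subunit of the NAD-linked isocitrate dehydrogenase, changed by -0.44 and FH, fumarase, by -0.39, while IDH2, the NADP-linked mitochondrial enzyme, rose by 0.88. Regulators split evenly, with 4 of 15 higher and 4 lower: MYC and the co-activator PPRC1 changed by -0.49 and -0.55, and PPARGC1B rose by 0.57. ESRRA, PPARA and PPARD, nuclear receptors that act on energy metabolism, rose with time in Ad-TEADi cells by 0.86, 0.93 and 0.90, while PPRC1 changed by -0.71. In that comparison 35% of all tested genes were higher and 33% lower. The count over the 15 regulators and the changes of these 4 in Ad-GFP cells are not reported here.

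With time the 2 ribosomal protein families parted. Of 75 cytosolic ribosomal protein genes 72 rose and none fell in Ad-GFP cells, with a median of 0.81, above the 0.44 of the coding nuclear members, and 67 rose and 2 fell in Ad-TEADi cells (median 0.66). The mitochondrial ribosomal protein genes had medians of 0.11 and -0.12. Of them, 24 were higher and 8 lower in Ad-GFP cells, and 14 were higher and 33 lower in Ad-TEADi cells. Beside the counts of both families, 31.1% of all tested genes were higher and 24.9% lower in Ad-GFP cells. In Ad-TEADi cells 35% and 33% were. The 24 mitochondrial ribosomal protein genes that rose in Ad-GFP cells were thus about the share of all genes, and a smaller share fell. In Ad-TEADi cells a smaller share of them rose and a larger share fell than among all genes. At 48 h between the viruses 29 of the 75 cytosolic genes fell and 1 rose (median -0.12).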

How the data were processed

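RNA-seq of polyA RNA from 18 libraries of N/TERT2G keratinocytes was used, in 6 groups taken from the sample labels. Per the study's methods and the submitters' processing notes, the authors trimmed reads with Trimmomatic 0.36, aligned them with STAR 2.5.1 to hg19, estimated gene counts in Partek 8.0.19.0819 and kept genes with at least 8 reads. The study's reporting summary gives a later STAR version and also names Cutadapt, and its methods give an earlier Partek version. The strand setting and the handling of reads shared by near-identical copies are not given in the sources used here. Expression was deposited as TMM-normalised CPM, with 1 read added to each count, so that the lowest value of a library gave the worth of 1 read. The deposited TPM values sum to between 98913 and 99722 per library. The lengths behind them matched the genomic span of the gene within 1% for 99.5% to 99.7% of the genes of at least 10 CPM in each library, so they were used, multiplied by 10, only as an alternative. The deposited p-values and q-values, ratios, signed fold changes and least-squares mean signal of the authors' own comparisons were not used.

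Members and lists were chosen with earlier results of these data known. Values were tested as log2(CPM + 1) with limma 3.58.1 in R 4.3.3 (a mean for each group, trend and robust options), for genes of at least 1 CPM in at least 3 libraries, with Benjamini-Hochberg adjustment over 13417 genes. The limits for a call were an adjusted p of 0.05 and a fold of 1.5. Genes were named when called, when among the 5 largest passing nuclear changes each way without overlap and with at least 5 CPM in the higher group, as mitochondrial genes, as isoform pairs, or, in each list, when called or among the 3 smallest adjusted p. Other named genes were chosen after their values were seen, and some values are not reported here. In data simulated for the 48 h comparison on 13535 genes, of 200 changed genes 96% of the 2-fold and 63% of the 1.5-fold changes passed, and 0.172% of the unchanged genes did. The simulation gave every gene the same fixed dispersion of 0.01. It changed far fewer genes than the 3045 higher and 3730 lower that passed at 48 h. These shares therefore need not hold for the real libraries. Alternatives were other pseudocounts, filters, scalings and fits, the TPM values, the replicate number as a block, and each library left out.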

Additional observations from a re-analysis of the deposited data

Results flagged for a closer look

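COX6B2, NDUFAF3, NDUFS8, MT-ND4L, ATP5G1 and SDHA stood out because the test of the difference between the 48 h and the 24 h response to Ad-TEADi passed for them (limma, Benjamini-Hochberg adjusted p). The response of COX6B2 was higher at 48 h by 1.30 on the log2 scale. For NDUFAF3 the difference was -0.44, for NDUFS8 -0.44, for MT-ND4L -0.42, for ATP5G1 -0.31 and for SDHA -0.25. What lay behind these differences was not tested.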

How the results depend on the processing

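The direction of the nuclear rise with time held under each alternative run, but counts moved. From 12 to 48 h 25 members were called under Ad-GFP and 26 under Ad-TEADi, 6 and 8 with TPM values, and 13 and 13 after rescaling outside the mitochondrial chromosome. Members higher were 74 and 64, and 48 and 40 with TPM. Members lower in Ad-GFP cells were 5, 3 with a mean of at least 10 and 16 with TPM, and in Ad-TEADi cells 4, 2 with that filter, 27 with TPM, 15 rescaled, 11 after quantile normalisation and 9 with only the groups compared. At 48 h between viruses, 5 were higher and 16 lower, 12 and 10 with TPM, and 8 and 25 with only the groups compared. With a mean of at least 10, which leaves out COX6B2, 0 were called at 48 h, 0 were higher at 24 h, and 0 were called or higher in the difference of responses. At 24 h 1 was called, not 0, with a pseudocount of 0.1 and with TPM. In the difference of responses 2 were higher after quantile normalisation, 3 were higher with only the groups compared and 2 were lower with TPM.

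At 12 h 0 members were higher, not 1, with a pseudocount of 5, without a filter, with TPM, without trend and robust options and with only the groups compared, and 1 was lower, not 0, with a mean of at least 10 and with only the groups compared. Mitochondrial minus nuclear medians of -0.39 and -0.38 became -0.58 and -0.65 after quantile normalisation. Signs turned for ATP5G1 in Ad-TEADi cells (-0.051, TPM), MT-CO3 in Ad-GFP cells (-0.070, quantile), NDUFA10 in Ad-GFP cells (-0.093 with TPM, -0.0026 rescaled) and NDUFA5 in Ad-GFP cells (-0.068, TPM). The causes were not tested.

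Leaving out each library gave 23 to 35 called in Ad-GFP and 21 to 30 in Ad-TEADi cells with time, 0 to 0 at 12 h, 0 to 1 at 24 h, 1 to 1 at 48 h and 1 to 1 in the difference of responses. Higher members ran over 68 to 74, 61 to 64, 0 to 1, 0 to 1, 3 to 5 and 1 to 2 in that order, and lower members over 2 to 5, 4 to 5, 0 to 1, 0 to 2, 10 to 18 and 3 to 6. The mitochondrial minus nuclear medians ran over -0.48 to -0.36, -0.42 to -0.30, -0.23 to -0.18, -0.12 to 0.06, -0.19 to -0.05 and -0.18 to -0.01.

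Deviations of libraries with the same replicate number were weakly correlated (-0.11 to 0.14). Between 48 and 12 h in Ad-GFP cells they were at 0.11, 0.09 and 0.14, against -0.13 to 0.02 for different numbers. The other comparisons did not all show this order. With 3 libraries a group, whether the numbers pair libraries cannot be told. With the replicate block 2 members were lower at 12 h, not 0, and MT-ND6 at 48 h and MT-ND4L in the difference of responses no longer passed (adjusted p = 0.0517 and 0.0566). The other 120 passing results of named genes still passed. In simulated data with 3 libraries a group and a fixed dispersion of 0.01, 63% of 1.5-fold changes passed. Smaller changes were not simulated, and the share need not hold for the real libraries.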
